A study of Mus musculus with 12 samples.

Results

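The transcripts of the AMP-activated protein kinase (AMPK) subunits and of its activating kinases LKB1 and CaMKK2 were examined in the hypothalamic arcuate nucleus (ARC) of mice that carried a mutant AMPK subunit. The members were the 9 rows of the deposited table with the symbols *Prkaa1*, *Prkaa2*, *Prkab1*, *Prkab2*, *Prkag1*, *Prkag2*, *Prkag3*, *Stk11* and *Camkk2*, out of 38283 genes in all, and each symbol had 1 row. RNA had been sequenced from the laser-captured ARC of freely fed C57BL/6 males aged 8 weeks, with 5 wild-type (WT) libraries and 7 from mice homozygous for the R299Q knock-in in *Prkag2*, called Homo. The knock-in was in every cell of the body from the germ line on, so the groups differed in γ2 in all tissues and not in the ARC alone. The labels name no batch, do not tie libraries to litters and give 1 sample per library, so p-values measure the spread between these libraries, which may in part be technical.

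AMPK is a kinase that senses low cellular energy, and each complex holds 1 catalytic α, 1 scaffolding β and 1 nucleotide-binding γ subunit, with several genes for each. The γ subunit binds AMP, ADP and ATP, and full activity needs a phosphate on the activation loop of α, placed there by LKB1 or, when calcium rises, by CaMKK2. In the hypothalamus AMPK is known for its part in feeding, in the neurons that respond to ghrelin and leptin.

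The γ subunits are the ones on which the design turns. The altered codon of *Prkag2* lay in exon 7 of 16 of its longest coding transcript (GRCm38, minus strand, chr5:24880724-24880726), and the matching codon lay in exon 4 of 12 of *Prkag1* (chr15:98815699-98815701) and exon 5 of 14 of *Prkag3* (chr1:74745910-74745912), both on the minus strand. The reference bases around these codons are shown because they place the mutation and show how alike the 3 γ genes are there. Each line is coding sequence of the reference mouse (GENCODE release M21, GRCm38), 5′ to 3′, and the capitals mark the codon for the arginine that R299Q replaces in γ2 and for residue 69 of γ1 and 225 of γ3.
Prkag2: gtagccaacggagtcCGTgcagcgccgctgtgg
Prkag1: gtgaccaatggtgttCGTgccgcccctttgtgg
Prkag3: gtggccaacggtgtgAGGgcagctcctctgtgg
The codon was read as arginine in all 3 genes. Of the 33 bases shown, *Prkag1* shared 24 with *Prkag2* and *Prkag3* shared 26. Over the aligned residues translated from these models, γ1 was identical to γ2 at 75.2% of 326 and γ3 at 62.3% of 324. The codon was held by 5 of the 6 coding transcripts of *Prkag2*, a gene with 3 start sites in RefSeq, which the deposited values sum into 1 row. R299Q exchanges an amino acid and leaves the gene in place, so the level of *Prkag2* does not check the genotype labels, and expression values do not show which allele was read.

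Values are in FPKM, fragments scaled to transcript length and to the fragments mapped in a library, so levels are compared between genes per length. Whether the amplified RNA covered long and short transcripts alike was not tested. The table holds no counts. The library totals lay between 1.33e+07 and 2.12e+07 FPKM and were almost wholly taken by a few genes, with 95.9% to 98.1% in the 10 highest. From the steps between low values, 1 fragment on 1 kb was estimated to be worth 0.0891 to 0.123 FPKM in 5 deeper libraries (WT 3 to 5, Homo 6 and 7), which listed 18141 to 18635 genes above 0, and 0.214 to 0.339 FPKM in 7 shallower libraries (WT 1 and 2, Homo 1 to 5), which listed 15742 to 16467. Neither the labels nor the methods name these sets as batches, and because genotype is unevenly spread over them, differences are also given within sets. The sample titles of Homo 6 and 7 are worded otherwise than those of Homo 1 to 5, without a stated reason, while the WT titles are all alike. All 8 markers of ARC neurons were measured, among them *Agrp*, *Npy* and *Pomc*, and the ventromedial markers *Nr5a1* and *Fezf1* summed to at most 0.559 FPKM in WT and 0.679 FPKM in Homo.

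Of the 9 members, 8 had a mean of at least 1 FPKM over the 12 libraries and entered the test, as did 14017 genes in all. The order of their mean levels on the log2(FPKM + 1) scale was *Stk11*, *Prkag2*, *Prkag1*, *Prkaa1*, *Prkab1*, *Prkaa2*, *Prkab2*, *Camkk2* and last *Prkag3*. Of the 7 pairs of neighbours in that order with both means above 0, 5 were separated by an exact sign-flip test over libraries (two-sided, Benjamini-Hochberg over these 7 pairs). *Camkk2* and *Prkag3* are not among them, since the listed zeros of *Prkag3* fix that outcome. *Prkag2* and *Prkag1* were not separated (log2 difference 0.26, adjusted p = 0.162), nor were *Prkab1* and *Prkaa2* (log2 difference 0.035, adjusted p = 0.911). The step from *Prkaa1* to *Prkab1* passed narrowly (log2 difference 0.73, exact adjusted p = 0.0444, higher in 10 of 12 libraries), and without any 1 of WT 1, WT 3, Homo 2, Homo 5, Homo 6 or Homo 7 it did not pass, with adjusted p values of 0.0697 to 0.0889. The step from *Prkab2* to *Camkk2* (log2 difference 0.42, exact adjusted p = 0.0265) likewise did not pass without any 1 of WT 1, Homo 5 or Homo 6, with adjusted p values of 0.0513 to 0.053. The members therefore ran from the 82.7 percentile of the tested genes (*Stk11*) to the 1.53 percentile (*Camkk2*) by mean FPKM. The order rests on the scaling to length. In estimated fragments, not scaled to length, *Prkag1* had a lower median than *Prkaa1* (102 against 139). The other separated pairs kept their order by these medians.

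**Figure D1:**
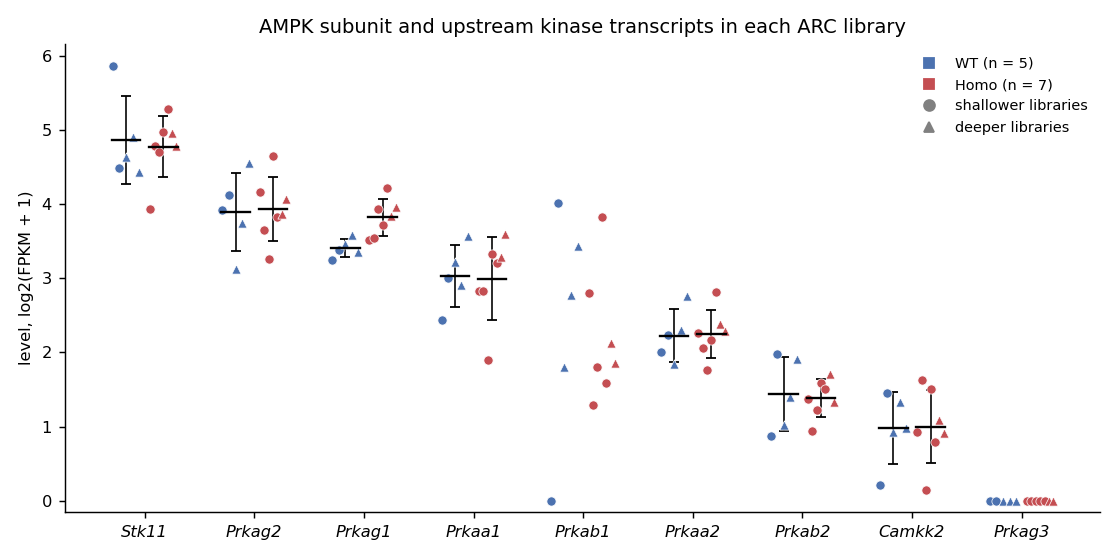
Level of each gene as log2(FPKM + 1) on the vertical axis, with genes in order of mean level and 1 point per library (blue WT, n = 5, red Homo, n = 7, circles for shallower and triangles for deeper libraries). Black lines are the mean and SD of each genotype, left out for *Prkab1* and *Prkag3*, which hold values of 0; the genotypes overlap for every gene, least for *Prkag1*.

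Among the catalytic subunits, α1 (*Prkaa1*, ENSMUSG00000050697, chr15:5143861-5181899, plus strand) had the higher FPKM in every library. This order depends on the scaling to length, with longest coding transcripts of 4655 nt for *Prkaa1* and 7969 nt for *Prkaa2*. Estimated fragments, not scaled to length, had medians of 139 for *Prkaa1* and 158 for *Prkaa2*. They were higher for *Prkaa2* in WT 1, WT 4, Homo 1, Homo 3 and Homo 5. From WT 1 to WT 5 *Prkaa1* stood at 4.43, 7.05, 8.29, 6.48 and 10.9 FPKM. In Homo its lowest value was 2.73, its median 8.19 and its highest 11.1 FPKM. The genotypes covered almost the same range, with 1 Homo library above all WT and 1 below. α2 (*Prkaa2*, ENSMUSG00000028518, chr4:105029874-105109890, minus strand) stood at 3.01, 3.69, 2.59, 3.91 and 5.80 FPKM in the 5 WT libraries. The Homo values spanned 2.39 to 6.03 FPKM with a median of 3.78. Here too the genotypes overlapped over nearly their whole range. The mean levels were 7.42 ± 2.37 FPKM in WT and 7.42 ± 2.71 FPKM in Homo for *Prkaa1*, and 3.80 ± 1.24 and 3.86 ± 1.13 FPKM for *Prkaa2* (SD, n = 5 and 7).

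α1 made up 65.1 ± 6.75% of the summed α FPKM (SD, n = 12), from 53.3% in Homo 3 to 76.2% in WT 3, and stood above 50% in 12 of 12 libraries. The log2 ratio of α2 to α1 averaged -0.92 ± 0.44, and it differed from 0 (exact sign-flip test, p = 0.000488, the smallest that 12 libraries allow, adjusted over the 3 isoform ratios p = 0.00146). The α1 share was 65.8 ± 6.33% in WT and 64.5 ± 7.48% in Homo. The difference of the log2 ratio between genotypes was 0.078 (exact permutation over 792 splits, p = 0.774). The library sets stood further apart than the genotypes in this ratio, with means of -0.73 in the shallower and -1.17 in the deeper libraries, and the part of the set in the α composition was not tested.

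The scaffolding β subunits, which join α to γ and bind glycogen, gave the widest spread of the complex. β1 (*Prkab1*, ENSMUSG00000029513, chr5:116013586-116024508, minus strand) was listed at 0 in WT 1 and at 15.1, 2.48, 5.85 and 9.79 FPKM in WT 2 to WT 5. In the 7 Homo libraries it was listed at 5.95, 1.46, 2.48, 13.1, 2.01, 3.36 and 2.64 FPKM. A few high libraries of both genotypes, WT 2, Homo 4 and WT 5, stood above the rest, and 2 of 7 Homo libraries lay above the WT median. In fragments, *Prkab1* was estimated at no more than 152 in any library. An exact 0 in this table need not be absence, since the abundant mitochondrial ribosomal RNAs *mt-Rnr1* and *mt-Rnr2* were listed at 0 in all 12 libraries. A 0 in 1 library alone is a different case. WT 1 was alone at 0 for 16 of the 8724 genes with a mean of at least 5 FPKM, and whether *Prkab1* was absent there was not tested.

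β2 (*Prkab2*, ENSMUSG00000038205, chr3:97658193-97673812, plus strand) was low and steadier. From WT 1 to WT 5 it stood at 0.832, 2.94, 1.04, 1.65 and 2.76 FPKM, and the Homo values spanned 0.914 to 2.28 FPKM with a median of 1.59. All 7 Homo values lay inside the WT range. In FPKM β1 exceeded β2 in 11 of 11 libraries in which it was listed above 0, with a share of 52.1% to 86.7% of the summed β FPKM. This too depends on length, with longest coding transcripts of 2089 nt for *Prkab1* and 5006 nt for *Prkab2*. Of these libraries, WT 3, Homo 2, Homo 3, Homo 5, Homo 6 and Homo 7 had more estimated fragments for *Prkab2*. With WT 1 left out, the log2 ratio of β2 to β1 averaged -1.36 ± 0.82 (SD, n = 11) and differed from 0 (exact sign-flip test, p = 0.000977, adjusted over the 3 isoform ratios p = 0.00146).

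The log2 ratio of β2 to β1 was -2.36, -1.26, -1.83 and -1.83 in WT 2 to WT 5, and the Homo values spanned -2.71 to -0.12 with a median of -0.81. Of the 7 Homo libraries 5 lay above all 4 WT values, Homo 1 lay among them and Homo 4 lay below. The genotypes differed by 0.72 on this scale (exact permutation over 330 splits, p = 0.170, adjusted over 7 ratios p = 0.757), and with genotype rearranged only within the library sets by 1.01 (exact permutation, p = 0.05, adjusted p = 0.350). The difference was 1.1 in the shallower libraries, where 1 WT library had a value, and 0.95 in the deeper ones. All of these leave out WT 1. With 1 FPKM added to each value, which keeps WT 1 but shrinks the ratios of low genes, the difference was 0.16 (exact permutation, adjusted p = 0.842). The ratio thus did not pass the test between genotypes.

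The regulatory γ subunits had the highest summed FPKM of the classes. γ2 (*Prkag2*, ENSMUSG00000028944, chr5:24862744-25100642, minus strand), the mutated subunit, stood at 14.1, 16.4, 7.73, 12.4 and 22.5 FPKM from WT 1 to WT 5. In Homo its lowest value was 8.61, its median 13.6 and its highest 24.0 FPKM. Both genotypes spread over nearly the same range, with 3 of 7 Homo libraries above the WT median. The means were 14.6 ± 5.43 FPKM in WT and 14.8 ± 4.88 FPKM in Homo (SD). The long non-coding gene *1500035N22Rik* lies within the *Prkag2* region on the other strand at 0.955 to 9.65 FPKM, and since the strand of the library preparation is not given in the sources used here, reads shared by the pair cannot be told apart.

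γ1 (*Prkag1*, ENSMUSG00000067713, chr15:98812797-98831521, minus strand) was the steadiest member in WT, at 8.52, 9.43, 10, 11 and 9.21 FPKM. The Homo values spanned 10.4 to 17.7 FPKM with a median of 13.4. All 7 Homo libraries lay above the WT median and 5 of them above the highest WT library, while Homo 1 and Homo 2 lay inside the WT range. The means were 9.64 ± 0.938 FPKM in WT and 13.3 ± 2.53 FPKM in Homo (SD). γ3 (*Prkag3*, ENSMUSG00000006542, chr1:74738922-74749221, minus strand), a subunit known from skeletal muscle, was listed at 0 in all 12 libraries. So were 38.3% of the genes in the table, the abundant *mt-Rnr1* and *mt-Rnr2* among them, so the 0 need not be absence. Of the 4 muscle markers, *Ckm*, *Myh2* and *Myh6* reached at most 0.0812, 0.0472 and 0.173 FPKM, while *Acta1* was listed at 0.423 to 7.68 FPKM.

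γ2 made up 54.7 ± 10.4% and γ1 45.3 ± 10.4% of the summed γ FPKM (SD, n = 12). γ2 was above 50% in 9 of 12 libraries, from 37.7% in Homo 3 to 70.9% in WT 5. The log2 ratio of γ2 to γ1 averaged 0.28 ± 0.62 and could not be told from 0 (exact sign-flip test, p = 0.143, adjusted over the 3 isoform ratios p = 0.143), so neither γ isoform was shown to lead in FPKM. Without Homo 3, the library with the lowest ratio, the mean was 0.37 and passed narrowly (exact adjusted p = 0.0498). This result too depends on length, with longest coding transcripts of 1652 nt for *Prkag1* and 3331 nt for *Prkag2*. Estimated fragments, not scaled to length, were higher for *Prkag2* in every library, with medians of 225 for *Prkag2* and 102 for *Prkag1*. The log2 ratio of FPKM was 0.73, 0.80, -0.37, 0.17 and 1.29 in WT 1 to WT 5, and in Homo it ran from -0.73 to 0.98 with a median of 0.11. The γ2 share was 58.7 ± 10.6% in WT and 51.9 ± 9.98% in Homo, and the log2 ratio differed by -0.41 (exact permutation, p = 0.278, adjusted over 7 ratios p = 0.757). Within the library sets the difference was -0.64 and -0.29, and with 1 library left out it lay between -0.63 (without WT 3) and -0.22 (without WT 5).

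**Figure D2:**
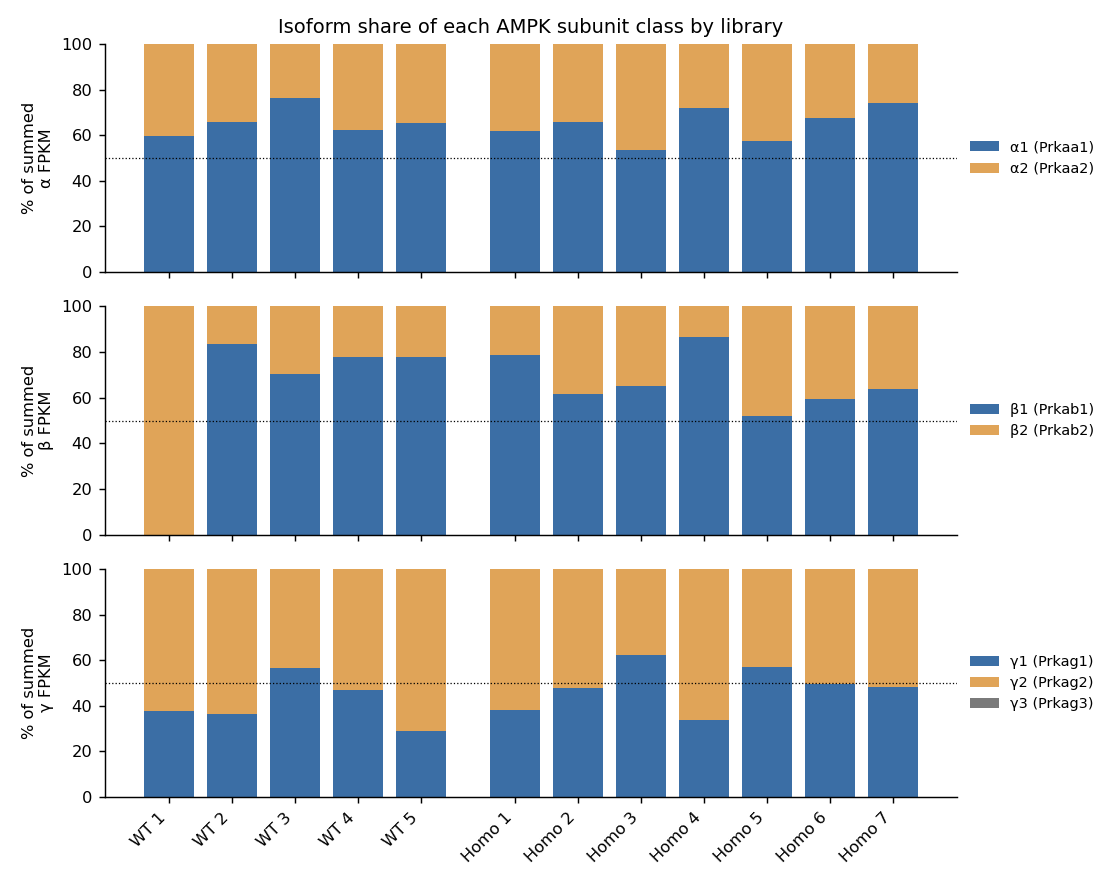
Share of each isoform in the summed FPKM of its subunit class (vertical axis, percent) for each of the 12 libraries (horizontal axis), with α at the top, β in the middle and γ below, and a dotted line at 50%. α1 is above the line in 12 libraries and β1 in 11, WT 1 being the one in which β1 is listed at 0, whereas γ2 is above it in 9.

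**Figure D3:**
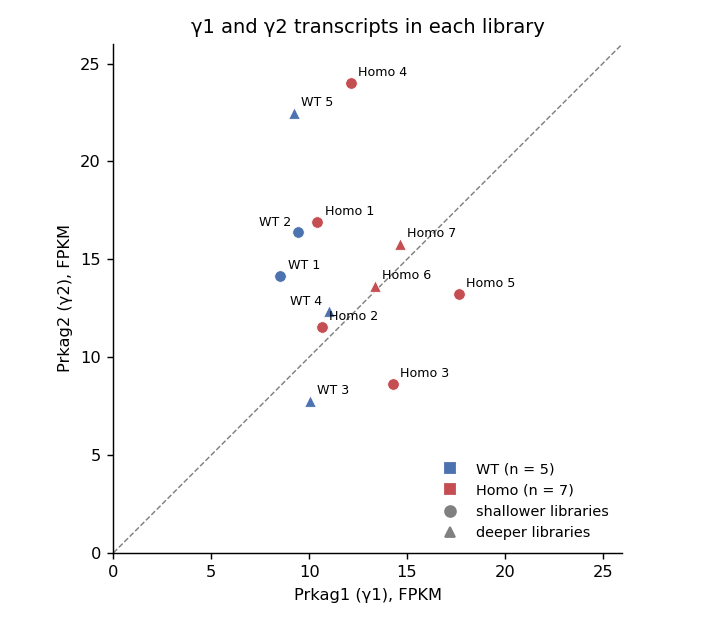
*Prkag2* (vertical axis) against *Prkag1* (horizontal axis) in FPKM, with 1 labelled point per library and a dashed line where both are equal. *Prkag1* spans 8.52 to 11 FPKM in WT against 10.4 to 17.7 FPKM in Homo, while *Prkag2* covers 7.73 to 22.5 FPKM in WT against 8.61 to 24.0 FPKM in Homo.

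Summed per class, γ transcripts reached 26.5 ± 5.12 FPKM, α transcripts 11.3 ± 3.25 and β transcripts 7.08 ± 5.4 (SD, n = 12, with *Prkab1* in WT 1 taken at its listed 0). In FPKM the γ sum was above the α sum in 12 of 12 libraries, and the α sum above the β sum in 10. The order of γ and α depends on the scaling to length. Longest coding transcripts were 1652 and 3331 nt for γ1 and γ2, and 4655 and 7969 nt for α1 and α2. In WT 3 estimated fragments were 397 and 216 for α1 and α2, together above 158 and 261 for γ1 and γ2. In WT 1 they were 80.7 and 95.5, together below 51.1 and 182. In WT the FPKM sums were 24.3 ± 5.08, 11.2 ± 3.35 and 8.48 ± 6.93 for γ, α and β, and in Homo 28.1 ± 4.86, 11.3 ± 3.44 and 6.07 ± 4.31. None of the 7 log2 ratios compared between genotypes, the 3 within classes, the 3 between class sums and *Stk11* to *Camkk2*, passed an exact permutation test after adjustment, with adjusted p values from 0.757 to 0.908. These are transcript sums, and the amounts of the proteins were not measured in these libraries.

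**Figure D4:**
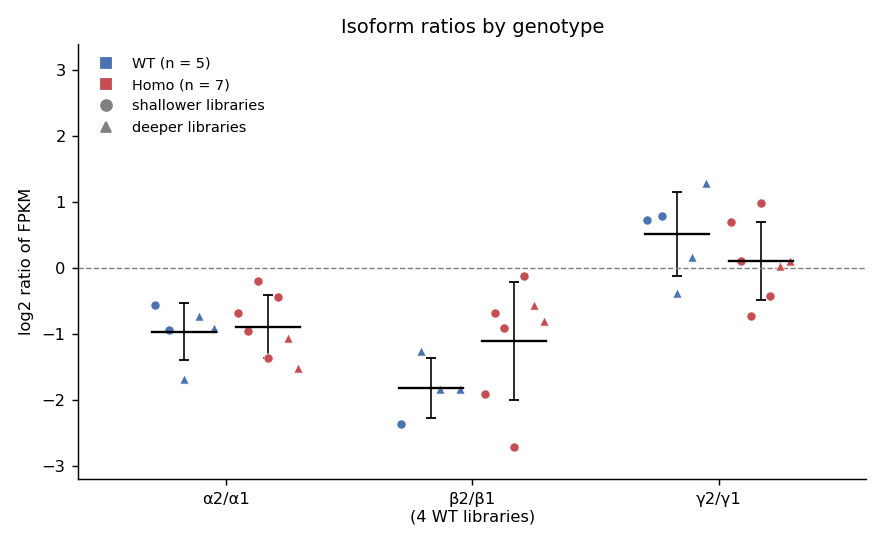
log2 ratio of the FPKM of the second isoform to that of the first (vertical axis) for α, β and γ, with 1 point per library, colours and symbols as in the plot of levels, and lines for the mean and SD of each genotype. The α and β ratios lie below 0 in every library shown, the γ ratios lie on both sides, and the genotypes overlap in all 3; WT 1 has no β value.

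Of the kinases upstream, LKB1 (*Stk11*, ENSMUSG00000003068, chr10:80115803-80130682, plus strand), which phosphorylates α under energy stress, had the highest level of the members. From WT 1 to WT 5 it stood at 57.2, 21.4, 23.8, 28.9 and 20.6 FPKM, and the Homo values spanned 14.3 to 37.9 FPKM with a median of 26.6. WT 1 stood apart from the other WT libraries, which lay within the Homo range. The means were 30.4 ± 15.4 FPKM in WT and 27.3 ± 7.14 FPKM in Homo (SD). *Stk11* shares 232 bases with *Cbarp* on the other strand, which was listed at 485 to 983 FPKM, and without strand the reads from the shared bases cannot be told apart.

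CaMKK2 (*Camkk2*, ENSMUSG00000029471, chr5:122731170-122779409, minus strand), the calcium-dependent activator of AMPK, was the lowest member above 0. From WT 1 to WT 5 it stood at 0.155, 1.73, 0.895, 1.52 and 0.968 FPKM, and the Homo values spanned 0.109 to 2.09 FPKM with a median of 0.902. The lowest libraries, WT 1 and Homo 3, were among the shallower ones, and the genotypes overlapped throughout. These levels rested on an estimated 2.38 to 72.8 fragments, against 146 to 806 for *Stk11*. *Stk11* was higher than *Camkk2* in 12 of 12 libraries, with a ratio of FPKM between 12.4 and 370, the highest again in WT 1.

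Homo was then compared with WT by limma on log2(FPKM + 1), which understates the change of low genes, with adjustment over all 14017 genes. No member was called at an adjusted p under 0.05 (0 of 8, lowest adjusted p = 0.899), and 1 of 8 had an unadjusted p under 0.05. Over all genes tested 0.00713% were called after adjustment, which was *Jarid2* alone, and 5.55% had an unadjusted p under 0.05. The genotypes did not separate without overlap for any of the 8 members, against 0.221% of all genes tested. Of the 8 members 4 had a higher and 4 a lower mean in Homo, with a median log2 fold change of -0.0061, beside -0.0062 over all genes tested.

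The member with the unadjusted p under 0.05 was *Prkag1*, with a log2 fold change of 0.41 (SE 0.18, 95% interval 0.034 to 0.79, limma adjusted p = 0.899). By exact permutation of this gene alone over the 792 splits p was 0.00884, not adjusted for the number of genes, and with genotype rearranged within the library sets the difference was 0.45 (exact p = 0.0143, where 0.00476 is the smallest possible). It was 0.47 in the shallower and 0.44 in the deeper libraries, where the medians of all genes were -0.081 and 0.13. The mean of *Prkag1* was higher in Homo in both sets and in each fit with 1 library left out (0.35 to 0.46), and it passed adjustment over all genes in none of these fits. The unadjusted limma p was above 0.05 within each set and without any 1 of WT 1, WT 2, WT 5, Homo 5, Homo 6 or Homo 7.

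Beside *Prkag1*, the summed marker transcripts of several cell types reached higher in Homo than in WT, and their part in the *Prkag1* values was not tested. The 8 ARC neuron markers summed to 1280 to 4510 FPKM in WT and 3400 to 5160 FPKM in Homo, and the 4 pan-neuronal markers to 512 to 674 and 472 to 764 FPKM. The 4 astrocyte markers summed to 79.8 to 150 FPKM in WT and 87.8 to 170 in Homo, the 4 microglial markers to 18.0 to 32.9 and 25.4 to 45.4, and the 4 oligodendrocyte markers to 62.9 to 502 and 118 to 357. The endothelial markers summed to 10.7 to 18.0 FPKM in WT and 11.7 to 28.4 in Homo, those of tanycytes and ependyma to 5.79 to 22.9 and 2.35 to 19.8, and those of muscle to 0.517 to 4.72 and 1.63 to 7.75. The pituitary markers, of which *Gh*, *Prl*, *Tshb* and *Cga* each had a median of 0, summed to 0 to 113 FPKM in WT and 0 to 55.6 in Homo. In bulk tissue, fewer cells of a type and less RNA per cell cannot be told apart.

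For *Prkag2* itself the log2 fold change was 0.034 (SE 0.27, 95% interval -0.54 to 0.61, limma adjusted p = 0.993). The interval leaves room for a change of about the size seen for *Prkag1* in either direction, so the mutated gene was not shown to differ and was not shown to be the same. The catalytic subunits gave -0.034 for *Prkaa1* (95% interval -0.65 to 0.59) and 0.022 for *Prkaa2* (-0.48 to 0.52). *Prkab2* gave -0.058 (-0.64 to 0.52), *Stk11* -0.089 (-0.67 to 0.49) and *Camkk2* 0.021 (-0.75 to 0.79). The interval was widest for *Prkab1*, at -0.22 (-1.54 to 1.1). *Prkab1* moved with single WT libraries. It gave -0.82 without WT 1, in which it was listed at 0, 0.18 without WT 2 and 0.039 without WT 5. Its sign was also opposite (0.24) with a pseudocount of 0.1. *Stk11* likewise changed sign, with a log2 fold change of 0.16 without WT 1, its highest library, and 0.051 without Homo 1, its lowest. No difference between the library sets in the genotype effect on a member was detected by a test of the interaction (limma, adjusted p of at least 0.907 for each of the 8).

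**Figure D5:**
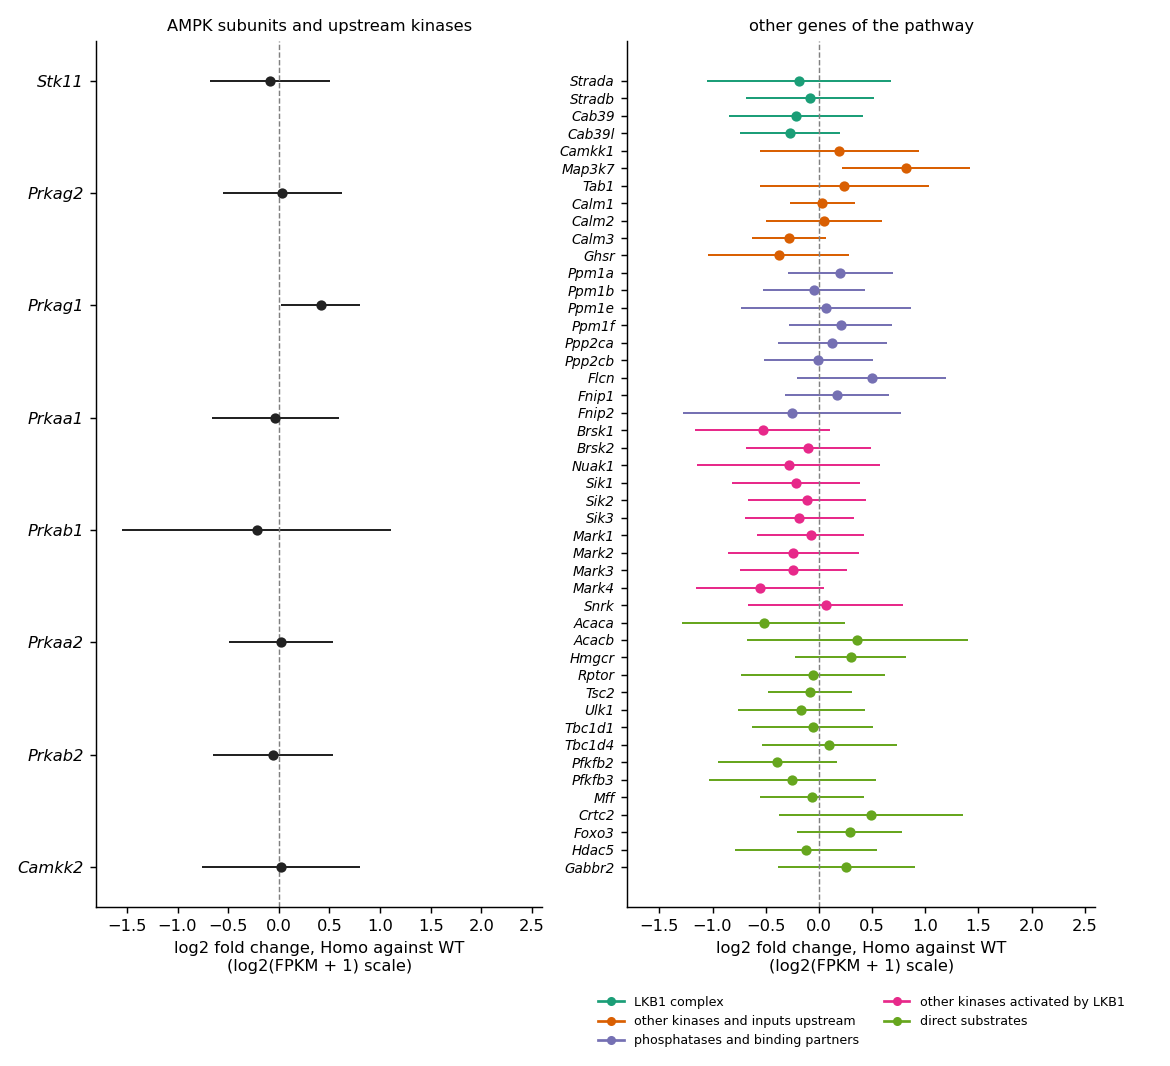
log2 fold change of Homo against WT on the log2(FPKM + 1) scale (horizontal axis, points) with 95% intervals from limma (lines), for the 8 members tested (left) and the 46 other genes of the pathway tested (right, coloured by list). *Prkag1* and *Map3k7* are the ones whose interval does not reach 0, and neither passed adjustment over 14017 genes.

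The rest of the pathway was read from 5 lists of 47 genes around AMPK, of which 46 were tested and none was called in either direction (limma, adjusted p of at least 0.783). An unadjusted p under 0.05 was found for 1 of the 46. This was *Map3k7*, the kinase TAK1 that can also phosphorylate AMPK, at 8.70 to 31.4 FPKM in WT (median 14.1) and 20.5 to 38.2 FPKM in Homo (median 28.6), where 3 Homo libraries lay above all WT. Its log2 fold change was 0.82 (SE 0.28, limma adjusted p = 0.783), and 1.41 in the shallower against 0.41 in the deeper libraries. In the same list of 7 other upstream kinases and inputs, 5 genes had a higher and 2 a lower mean in Homo. The lower gene with the smallest p was the calmodulin gene *Calm3* (-0.28, limma adjusted p = 0.906), with -0.33 in the shallower and -0.072 in the deeper libraries. In the shallower libraries 2 genes of this list had a higher and 5 a lower mean (median -0.22, beside -0.081 for all genes). In the deeper ones 6 had a higher and 1 a lower mean (median 0.19, beside 0.13).

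The partners with which LKB1 forms its active complex, *Strada*, *Stradb*, *Cab39* and *Cab39l*, had a lower mean in Homo for 4 of 4 genes, with a median log2 fold change of -0.20 against -0.0062 for all genes tested. *Cab39l*, which codes for a scaffold of that complex, gave -0.27 (adjusted p = 0.918), with -0.47 in the shallower and 0.091 in the deeper libraries. Among the 12 other kinases that LKB1 activates, 11 were tested and 10 had a lower mean in Homo, with a median of -0.21. *Mark4*, a kinase of microtubule-associated proteins, gave -0.55 (adjusted p = 0.899) and *Snrk* gave 0.064 (adjusted p = 0.990). *Mark4* gave -0.92 in the shallower and -0.036 in the deeper libraries, and *Snrk* -0.16 and 0.39. *Nuak2* had a mean under 1 FPKM and was not tested. None of these genes passed the test. In the 7 shallower libraries 4 of 4 and 11 of 11 genes had a lower mean in Homo, with medians of -0.45 and -0.35 beside -0.081 for all genes tested. In the 5 deeper libraries the counts were 2 of 4 and 8 of 11, with medians of -0.0063 and -0.061 beside 0.13 for all genes.

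Of the 9 phosphatases and binding partners, 6 had a higher and 3 a lower mean in Homo, with a median log2 fold change of 0.13. In the shallower libraries 4 had a higher and 5 a lower mean (median -0.044, beside -0.081 for all genes). In the deeper ones 8 had a higher and 1 a lower mean (median 0.27, beside 0.13). *Flcn*, which codes for folliculin, gave 0.50 (adjusted p = 0.915), and its partner *Fnip2*, which binds AMPK, gave -0.25 (adjusted p = 0.969). *Flcn* gave 0.54 in the shallower and 0.091 in the deeper libraries, and *Fnip2* -0.65 and -0.37. Of the 15 direct substrates, 6 had a higher and 9 a lower mean, with a median of -0.059. The majority was the other way within both library sets. In the shallower libraries 10 had a higher and 5 a lower mean (median 0.15, beside -0.081 for all genes). In the deeper ones 9 had a higher and 6 a lower mean (median 0.075, beside 0.13). The transcription factor *Foxo3* gave 0.29 (adjusted p = 0.916, and 0.10 without WT 3) and *Pfkfb2*, an enzyme that sets the level of a glycolytic activator, gave -0.39 (adjusted p = 0.915). *Foxo3* gave 0.24 in the shallower and 0.25 in the deeper libraries, and *Pfkfb2* -0.81 and 0.10. The acetyl-CoA carboxylases *Acaca* and *Acacb*, the best known substrates, were among those not called.

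Over the 12 libraries, the genes whose level ran most like that of *Prkag2* were *Elmod1*, *Adprm* and *Farsb*, with root mean square differences of 0.335, 0.400 and 0.463 between standardised log2(FPKM + 1) values, where 0 is the same profile and the median over 14016 genes was 1.20. The members were less alike to it. *Prkab2* stood at 0.850, *Prkaa2* at 0.883, *Prkab1* at 0.895, *Prkaa1* at 0.944, *Camkk2* at 1.09, *Stk11* at 1.42 and *Prkag1* at 1.46. *Prkag1*, the other γ gene above 0, was the member least like *Prkag2* across the libraries. This is a description over 12 libraries that share genotype and depth sets.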

How the data were processed

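RNA from laser-captured ARC was amplified across the transcriptome and sequenced by the authors. The submitters' processing notes list TopHat2 2.0.8, Cufflinks 2.2.1 and GRCm38, without their settings. The authors deposited 1 table of FPKM per gene and library. Its 12 columns were matched to the labels by genotype and number, and no fragment counts were used.

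Genes with a mean of at least 1 FPKM were compared as log2(FPKM + 1) with limma 3.58.1 in R 4.3.3 (trend, robust) and Benjamini-Hochberg adjustment. Isoform ratios were compared by exact two-sided permutation or sign-flip tests, run in Python 3.11.15 with numpy 2.4.6. The scripts were tested on simulated data. Positions are from GENCODE mouse release M21, in which 97.5% of tested identifiers were found. Fragments per library were estimated from steps between low values and are approximate. The members, lists and tests were chosen with earlier results of these data known. All 9 members are given in full. In each pathway list, genes with an adjusted p under 0.05 are named, otherwise the gene with the smallest p in each direction, and the 3 genes most like *Prkag2* are named. *Jarid2*, *Acaca*, *Acacb* and the genes overlapping a member were named after their values were seen. Alternatives covered scaling, pseudocount, filters, array weights, library sets, a replicate block and each library left out. Leaving out libraries for the order of levels, and adjusting it over 7 pairs, were added after seeing the data.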

Additional observations from a re-analysis of the deposited data

Results flagged for a closer look

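The gap of 1 library to its neighbours was large against the range of its genotype in 3 of 30 groups of values examined, where chance gives about 1 in 20. *Stk11* in WT 1 was 57.2 FPKM, the highest of the 5 WT libraries. The log2 ratio of *Stk11* to *Camkk2* in WT 1 was 8.53, also the highest of the WT libraries, from the same *Stk11* value and a *Camkk2* value of 0.155 FPKM. *Prkab1* in Homo 4 was 13.1 FPKM, the highest of the 7 Homo libraries.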

How the results depend on the processing

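No member passed adjustment over all genes under any of the 23 other settings. The log2 fold change of *Prkag1* kept its sign in all of them; the signs of the others, all with intervals across 0, did not, and the cause was not tested. With array weights *Prkaa1* gave 0.10, *Stk11* 0.010 and *Camkk2* -0.051, and with the library set as a covariate *Prkaa1* gave 0.15. Quantile normalization gave 0.0055 for *Prkab2*, and a pseudocount of 0.1 gave 0.24 for *Prkab1*. In the shallower libraries alone *Prkaa1* gave 0.090, *Prkab1* 0.26 and *Prkag2* -0.11. In the deeper ones *Prkaa1* gave 0.21, *Prkab2* 0.074, *Stk11* 0.22 and *Camkk2* -0.079. A mean of at least 5 FPKM left *Prkaa2*, *Prkab2* and *Camkk2* untested.

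With 1 library left out, log2 fold changes ranged from -0.18 to 0.15 for *Prkaa1*, -0.075 to 0.16 for *Prkaa2*, -0.82 to 0.18 for *Prkab1*, -0.20 to 0.077 for *Prkab2*, -0.16 to 0.20 for *Prkag2*, -0.20 to 0.16 for *Stk11*, -0.17 to 0.16 for *Camkk2*, -0.53 to 0.16 for *Fnip2*, 0.10 to 0.43 for *Foxo3* and -0.17 to 0.23 for *Snrk*. The mean log2 ratio of γ2 to γ1 ranged from 0.19 to 0.37. Differences between genotypes ranged from -0.10 to 0.18 for α2 to α1, -0.63 to -0.22 for γ2 to γ1, -0.36 to -0.11 for α to γ, -0.35 to 0.62 for α to β, -0.98 to 0.083 for β to γ and -0.60 to 0.73 for *Stk11* to *Camkk2*. The log2 level of *Prkaa1* less *Prkab1* ranged from 0.58 to 0.89, that of *Prkab1* less *Prkaa2* from -0.12 to 0.22. With *Camkk2* against *Prkag3* kept in the adjustment, as first planned, the other pairs were called alike over 12 libraries, and the step from *Prkab2* to *Camkk2* passed with any 1 library left out.

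In the 5 deeper libraries alone the mean log2 ratios were -1.17 for α2 to α1 and -1.26 for β2 to β1 and no longer passed, since 5 libraries cannot reach the threshold. There the genotype difference was -0.17 for α2 to α1 and 0.37 for *Stk11* to *Camkk2*. In the shallower ones it was -0.33 for α to β and 0.26 for β to γ. By medians it was -0.046 for α2 to α1 and 0.33 for *Stk11* to *Camkk2*, and within sets -0.068 for α2 to α1.

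The count of all genes called was 6 in the shallower, 19 in the deeper and 4 in WT with Homo 1 to 5, and 1 to 3 with 1 library left out. Members with an unadjusted p under 0.05 numbered 0 in each of those 3 subsets and 0 to 1 with 1 library left out, and pathway genes 1 to 2. The replicate numbers did not pair the libraries (correlations of deviations from -0.054 to 0.029). With a replicate block 2 genes and 0 members were called, 0 members had an unadjusted p under 0.05, *Prkaa2* gave -0.015 and α to β -0.11, and *Prkaa2* gave the same -0.015 in WT with Homo 1 to 5. *Prkab1* rested on an estimated 0 to 152 fragments, *Camkk2* on 2.38 to 72.8 and *Prkab2* on 16.4 to 124.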
